A study of Mus musculus with 12 samples.

Results

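Emp1, Creb5, Gprc5a and Zfp423 were described here as genes among those with the largest rise in mouse embryonic stem cells (ESCs) that carried a truncated PRAMEL7. They were 4 of 47940 genes matched to the annotation and 4 of the 12914 genes tested, and all 4 passed the filter of 1 CPM (reads on the gene, scaled to a common library size) in at least 2 libraries. They were chosen by the RPKM values of the truncated line against those of parental ESCs, so values of that contrast are given as a description, without a test. When genes were ranked that had a limma adjusted p under 0.05, a mean of at least 10 CPM and no overlap with the parental libraries, they took ranks 2 to 5 after the introduced Pramel7 itself. Zfp423 and Gprc5a, at the lower end, had log2 fold changes of 1.53 each, and the next gene in the ranking, Arhgef5, had 1.40. Creb5 reached the limit of 10 CPM only through the truncated line, with means of 8.16 CPM in the parental and 9.51 in the full-length line. By log2 fold change among all tested genes, without these limits, Emp1 took rank 5, Creb5 rank 9, Zfp423 rank 10 and Gprc5a rank 11.

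Polyadenylated RNA was sequenced from 3 lines of E14 mouse ESCs kept in serum with LIF, with 2 libraries per line. Parental ESCs carried no transgene. ESC + H/F-PRAMEL7WT expressed full-length PRAMEL7 with an HA/FLAG tag from a Cas9-directed insertion at Rosa26, driven by the CAG promoter. ESC + H/F-PRAMEL7ΔN expressed the same tagged protein without its N terminus, for which the labels give 50 amino acids and the text of the study a smaller number. Each derived line was grown from isolated single cells, so a line may stand for 1 clone. The RNA came from 2 independent dishes per the labels, so p-values measure the spread between dishes of a line and not between independently made lines. The libraries held 18249399 to 19850295 reads on genes.

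PRAMEL7 is an embryo-expressed member of the PRAME family of leucine-rich repeat proteins, several of which serve as substrate receptors of CUL2 ubiquitin ligases. In ESCs it has been linked to an expression program like that of the ground state. Emp1 encodes a small membrane protein of the PMP22 family that is frequent in epithelia. Gprc5a encodes an orphan G protein-coupled receptor that was first found as a gene induced by retinoic acid and later studied as a restraint on EGF receptor signaling in lung epithelium. Creb5 encodes a basic leucine zipper factor that binds cyclic AMP response elements and can pair with JUN. Zfp423 encodes a zinc finger factor that serves as a partner of SMAD proteins in the response to BMP and of retinoic acid receptors, and that takes part in the commitment of adipocyte precursors.

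In mm10, Gprc5a lies on chromosome 6 at chr6:135065651-135084709 and Emp1 at chr6:135362545-135383173, both on the plus strand and separated by 278 kb. Creb5 lies on the other side of the same chromosome at chr6:53287270-53700376, plus strand. Zfp423 lies at chr8:87661810-87959595 on the minus strand. None of these spans overlapped another gene with more than 2 reads in a library, which matters because the library kit does not mark the strand.

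RefSeq promoter sequences (GRCm38.p6) were matched for Emp1, Creb5 and Zfp423, with 2 transcript starts each. They are shown so that the starts of genes that rose in the same line can be compared. Capitals mark the AP-1 site TGAGTCA in Emp1 and the GC box GGGCGG, on either strand, in Creb5 and Zfp423. The Emp1 stretch runs from 223 to 28 bases before the first RefSeq start (chr6:135362708-135362903, plus strand), between annotated exons of the gene. The Creb5 stretch (chr6:53287053-53287225, plus strand) and the Zfp423 stretch (chr8:87959596-87959845, minus strand) lie before the first start and outside annotated exons.
Emp1: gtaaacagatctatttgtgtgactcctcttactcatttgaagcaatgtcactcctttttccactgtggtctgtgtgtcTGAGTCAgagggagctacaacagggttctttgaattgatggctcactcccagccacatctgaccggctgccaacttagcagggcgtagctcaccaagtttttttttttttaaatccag
Creb5: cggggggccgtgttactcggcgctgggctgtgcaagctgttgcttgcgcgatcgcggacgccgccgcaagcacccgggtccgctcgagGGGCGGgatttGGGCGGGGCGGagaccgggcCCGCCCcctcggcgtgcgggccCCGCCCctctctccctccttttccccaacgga
Zfp423: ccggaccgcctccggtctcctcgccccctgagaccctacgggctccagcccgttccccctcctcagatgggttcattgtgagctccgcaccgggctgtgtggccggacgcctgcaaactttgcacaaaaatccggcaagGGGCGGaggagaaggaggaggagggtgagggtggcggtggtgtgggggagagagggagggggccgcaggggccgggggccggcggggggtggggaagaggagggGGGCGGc

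The 250 bases before the first start of Creb5 held 28 CpG dinucleotides and those of Zfp423 held 18. Those of Emp1 held 3, against a median of 6 over 32851 promoters of the same length. Creb5 had 5 matches to the GC box, of which 1 neighbouring pair shared 1 base, and Zfp423 had 2. The GC box was present in 32.7% of all promoters. The TATA box letters TATAAA, present in 12.4%, had no match before any of these starts. Closer to the starts of Creb5, inside annotated exons, stood a cyclic AMP response element (TGACGTCA, capitals in the first line, chr6:53287247-53287276) and an AP-1 site on the other strand (capitals in the second line, chr6:53573318-53573347).
Creb5, first start: ggaatcccacgTGACGTCAccgggggggtg
Creb5, second start: tgggaaggataTGACTCActcaagctagtt

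The cyclic AMP response element was found in 1.55% of all promoters and the AP-1 site in 4.46%, each searched on both strands. These letters are a description of the windows, and binding at them was not measured in the data used here.

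Pramel7 separated the lines as their labels say. Its level was 0.258 and 0.217 CPM in the parental line, 51.2 and 46.2 in ESC + H/F-PRAMEL7WT, and 398 and 431 in ESC + H/F-PRAMEL7ΔN. Pramel7 RNA was thus 8.50-fold more abundant in the truncated than in the full-length line, and the deletion, the level of the introduced RNA and the clone cannot be told apart in a comparison of the derived lines. All 11 ESC markers were tested, and their summed level was 6591 to 7112 CPM in parental ESCs, 6446 to 6790 in ESC + H/F-PRAMEL7WT and 7330 to 7410 in ESC + H/F-PRAMEL7ΔN. In ESC + H/F-PRAMEL7ΔN, 1 of them, the naive pluripotency factor gene Klf2, was downregulated (log2 fold change -1.34, adjusted p = 0.000168 from limma) and none was upregulated. The full-length line had Utf1 upregulated (0.73, adjusted p = 0.0155 from limma) and Klf4 downregulated (-0.66, adjusted p = 0.0118 from limma).

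Emp1 had 46.6 and 36.4 CPM in parental ESCs (903 and 672 reads), 22.6 and 21.0 in ESC + H/F-PRAMEL7WT (447 and 381 reads), and 118.8 and 139.6 in ESC + H/F-PRAMEL7ΔN (2366 and 2644 reads). It was the only one of the 4 genes that moved in opposite directions in the derived lines, and no 2 lines overlapped. The rise in ESC + H/F-PRAMEL7ΔN was 3.11-fold, with a log2 fold change of 1.62 (standard error 0.13). In ESC + H/F-PRAMEL7WT the gene was downregulated 1.90-fold, with a log2 fold change of -0.89 (SE 0.13, limma adjusted p = 0.00252). Between the derived lines the level differed 5.93-fold.

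Gprc5a had 26.3 and 28.7 CPM in parental ESCs (509 and 530 reads), 27.5 and 28.3 in ESC + H/F-PRAMEL7WT (543 and 514 reads), and 85.8 and 76.6 in ESC + H/F-PRAMEL7ΔN (1709 and 1450 reads). The libraries of ESC + H/F-PRAMEL7WT fell between the parental ones, and those of the truncated line stood above all others. The log2 fold change was 1.53 (standard error 0.11) in ESC + H/F-PRAMEL7ΔN and 0.02 in ESC + H/F-PRAMEL7WT. For the full-length line the 95% interval ran from -0.22 to 0.26 (adjusted p = 0.905 from limma).

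Creb5 was the least abundant of the 4. It had 7.53 and 8.79 CPM in parental ESCs (146 and 162 reads), 9.06 and 9.96 in ESC + H/F-PRAMEL7WT (179 and 181 reads), and 25.8 and 25.2 in ESC + H/F-PRAMEL7ΔN (515 and 478 reads). The parental and full-length libraries lay close together, and the truncated line was 3.13-fold above the parental mean, a log2 fold change of 1.54 (SE 0.14). The log2 fold change of 0.20 in ESC + H/F-PRAMEL7WT had a 95% interval from -0.10 to 0.50 and did not pass the test (adjusted p = 0.296 from limma).

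Zfp423 differed from the other three in that both derived lines were above parental ESCs. It had 20.2 and 15.3 CPM in parental ESCs (392 and 282 reads), 39.4 and 42.8 in ESC + H/F-PRAMEL7WT (779 and 778 reads), and 56.5 and 49.1 in ESC + H/F-PRAMEL7ΔN (1125 and 930 reads). The rise was 2.97-fold in the truncated line (log2 fold change 1.53, standard error 0.14) and 2.32-fold in the full-length line (log2 fold change 1.18, standard error 0.14, adjusted p = 0.00116 from limma). The log2 difference between the derived lines was 0.35, given without a test because the gene was chosen for its level in the truncated line.

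**Figure D1:**
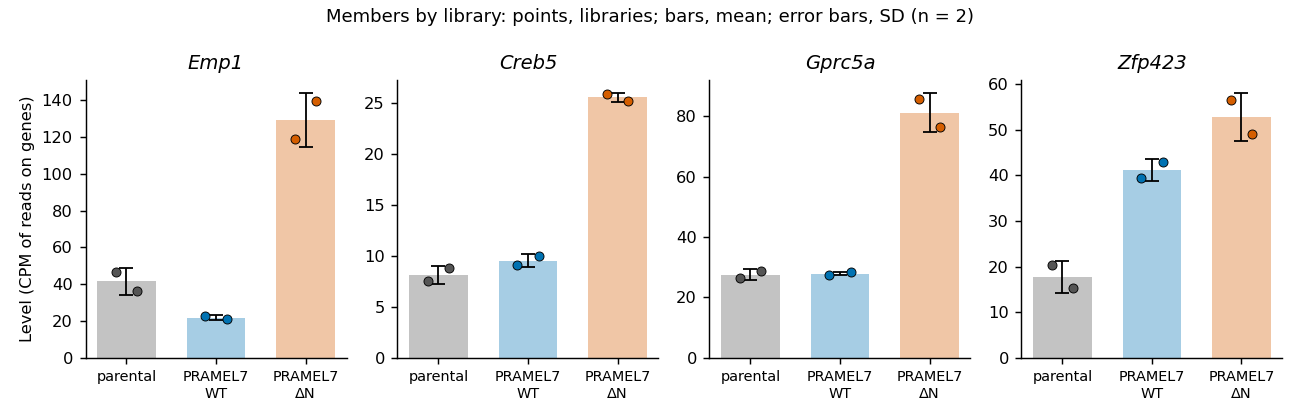
Levels of Emp1, Creb5, Gprc5a and Zfp423 in CPM of reads on genes (y axis, from 0) for parental ESCs, the full-length line and the truncated line. Points are libraries, bars are means and error bars are SD (n = 2), and the truncated line is highest for each gene while the full-length line is below parental for Emp1, near it for Creb5 and Gprc5a, and above it for Zfp423.

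In ESC + H/F-PRAMEL7WT, 1 of the 4 genes was thus upregulated and 1 downregulated, against 4.07% and 8.41% of all tested genes at an adjusted p under 0.05 and an absolute log2 fold change above 0.58. This contrast shares the parental libraries with the one that chose the genes. In ESC + H/F-PRAMEL7ΔN, where the choice was made, 2.87% of tested genes were upregulated. Both truncated libraries lay above both parental ones for the 4 genes by construction, which held for 21.6% of tested genes. Libraries of the full-length and parental lines did not overlap for 3 of the 4, against 64.2% of tested genes, and those of the derived lines did not overlap for any of the 4, against 68.8%. Over all tested genes, 4.72% were higher and 6.63% lower in the truncated than in the full-length line. Log2 differences of the members in that comparison were 2.51 for Emp1, 1.51 for Gprc5a, 1.34 for Creb5 and 0.35 for Zfp423, with no test, since it shares the truncated libraries with the choice.

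Per kilobase of annotated exon, used to set levels of different genes side by side, Gprc5a was the most abundant of the 4 in every line. In parental ESCs it had 13.2 CPM per kb, followed by Emp1 with 6.995, Zfp423 with 3.17 and Creb5 with 0.326. In ESC + H/F-PRAMEL7WT, Zfp423 with 7.33 CPM per kb stood above Emp1 with 3.67. In ESC + H/F-PRAMEL7ΔN the order was that of parental ESCs, with 39.0 for Gprc5a, 21.8 for Emp1, 9.41 for Zfp423 and 1.02 for Creb5. Neighbours in these orders did not overlap between libraries of a line.

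Across the 6 libraries, Creb5 and Gprc5a had the most similar profiles on the log2(CPM + 1) scale (Pearson r = 0.992) and Emp1 and Zfp423 the least similar (r = 0.377). These values describe 3 lines in 2 dishes each, and the truncated line is high in all 4 genes because they were chosen for it. Among 39 other genes with a log2 fold change above 1 in the truncated line and a mean of at least 5 CPM, the profile most like that of Emp1 belonged to Abca1, the cholesterol exporter (r = 0.993). Abca1 had a log2 fold change of 1.35 in the truncated line and -0.98 in the full-length line, given as a description because genes were picked here for their rise and likeness. Lemd1 (r = 0.963) and Cald1, which encodes the actin-binding protein caldesmon (r = 0.960), followed. The profile most like that of Creb5 belonged to Fosl2, an AP-1 factor (r = 0.987), followed by Arhgef5, which encodes a guanine nucleotide exchange factor (r = 0.979). For Gprc5a, similar profiles were those of Arhgef5 (r = 0.992) and Vwa1 (r = 0.969). For Zfp423 these were Kbtbd11 (r = 0.996), Plaur, the urokinase receptor gene (r = 0.995), and Laptm5 (r = 0.988), each of which was higher in both derived lines than in parental ESCs. Arhgef5 and Cald1 lie on chromosome 6, like 3 of the 4 members.

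The surroundings of the chromosome 6 members also rose in the truncated line. Within 1 Mb of Emp1, 13 other genes were tested, of which 4 were upregulated in ESC + H/F-PRAMEL7ΔN and none was downregulated, with a median log2 fold change of 0.45 against -0.06 over all tested genes. Within 1 Mb of Gprc5a, a window that shares genes with that of Emp1, the counts were 4 of 14 with a median of 0.49. Within 1 Mb of Creb5 they were 4 of 9 with a median of 0.64. For comparison, 2.87% of all tested genes were upregulated in the truncated line. On chromosome 6 outside the stretch from 80 to 100 Mb, described below, the share without the members was 13.8%, with a median of 0.31. In ESC + H/F-PRAMEL7WT the medians of these windows were -0.23, -0.19 and -0.21.

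Between Gprc5a and Emp1 lie Hebp1, Fam234b and the pseudogene Dynlt1-ps1. Fam234b rose from 28.4 and 31.8 CPM in parental ESCs to 49.1 and 49.4 in the truncated line (log2 fold change 0.70, adjusted p = 0.00261 from limma) and fell to 18.0 and 18.2 in the full-length line (log2 fold change -0.70, adjusted p = 0.00274). It thus had opposite directions in the derived lines, as Emp1 did. Hebp1, which encodes a heme-binding protein, had log2 fold changes of 0.45 and -0.02, and Dynlt1-ps1 had -0.17 and -0.05. On the other side of Gprc5a, upregulated genes in the truncated line included Lockd (0.87), Cdkn1b, the cyclin-dependent kinase inhibitor gene (0.69), and the MAP kinase phosphatase gene Dusp16 (0.67). Lockd, with a mean of 2.63 CPM, was also upregulated in the full-length line (0.65, adjusted p = 0.0357 from limma). Crebl2 and the WNT co-receptor gene Lrp6, with 0.54 and 0.34, did not pass the fold limit. Around Creb5, those upregulated were Tax1bp1 (0.67), Hibadh (0.81), Fkbp14 (0.85) and Plekha8 (0.64). Tril, the nearest of the named genes to Creb5, had 0.71 in the truncated line without passing the test and was upregulated in the full-length line (0.88, adjusted p = 0.0336 from limma).

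Zfp423 had no such surroundings. Of 13 other genes tested within 1 Mb on chromosome 8, limma called 0 in the truncated line and voom 0, with 3 at an unadjusted p under 0.05, and their median log2 fold change was -0.02. In ESC + H/F-PRAMEL7WT, Cbln1, a secreted synapse organizer gene, was downregulated (-1.24, adjusted p = 0.00126 from limma), as was Gm2694 (-0.69), and Rps13-ps1 was upregulated (0.65).

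**Figure D2:**
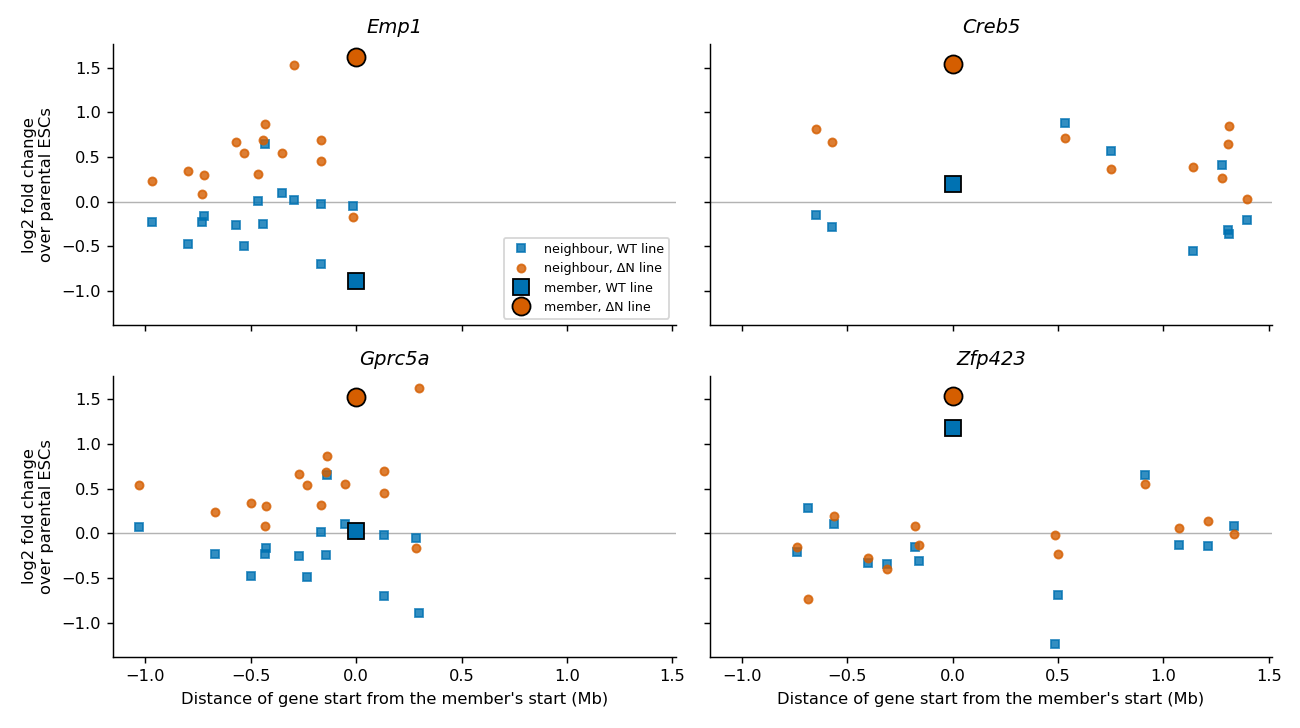
Log2 fold change over parental ESCs (y axis) of each tested gene within 1 Mb of a member. Circles are the truncated line and squares the full-length line. The x axis gives the distance of each gene's start from the start of the member in Mb. It follows the strand of the member, so the Zfp423 panel runs against the chromosome. Large symbols at 0 are the member; around Emp1, Gprc5a and Creb5 the circles lie mostly above 0 (medians 0.45, 0.49 and 0.64), whereas around Zfp423 they scatter about 0 (median -0.02).

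The shift was not limited to these windows. Of 600 other genes tested on chromosome 6, 66 (11.0%) were upregulated in the truncated line, against 299 of 12309 (2.43%) on all other chromosomes, and 77 (12.8%) were downregulated, against 8.20% on all other chromosomes. A larger share was downregulated on chromosome 11 (187 of 1102 genes, median log2 fold change -0.33) and on chromosome X (85 of 449, median -0.17). The full-length line also had 269 genes of chromosome 11 (median -0.36) and 70 of chromosome X (median -0.16) downregulated. In the block of chromosome 6 between 80 and 100 Mb, 57 of 123 tested genes were downregulated in the truncated line, with a median log2 fold change of -0.56. There limma called 0 up and voom 0, and 2 of the genes with a rise had an unadjusted p under 0.05. In ESC + H/F-PRAMEL7WT the same block had a median of -0.54 with 54 genes downregulated. The members lie outside this block. The remaining 477 genes of chromosome 6, without the members, had a median of 0.31 in the truncated line and -0.19 in the full-length line. Relative to that median, the rise in the truncated line was 1.31 for Emp1, 1.23 for Creb5 and 1.21 for Gprc5a on the log2 scale. None of these 477 genes rose more than Emp1, and 1 rose more than Creb5 and more than Gprc5a. The members were chosen for their rise, so this order is a description. The other genes of the chromosome with large rises and at least 10 CPM were Arhgef5 (1.40), Cald1 (1.19), the transcription factor gene Tead4 (0.98), the actin-capping gene Capg (0.97) and Klhl42 (0.95). The part of the chromosome-wide shift in the values of the members was not tested, and the number of copies of the chromosome was not measured in the data used here.

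**Figure D3:**
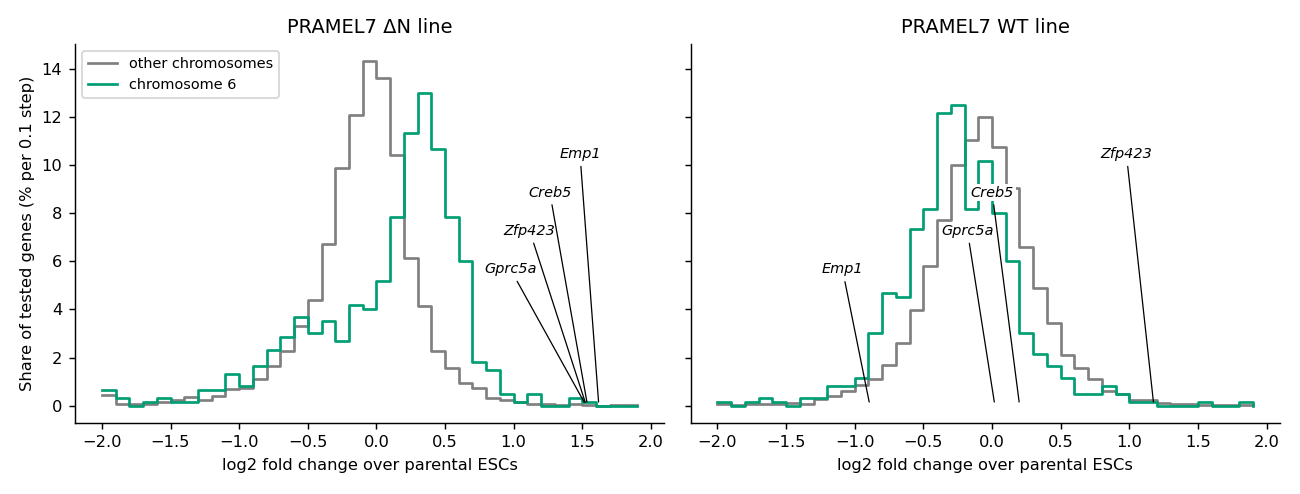
Share of tested genes per 0.1 step of log2 fold change over parental ESCs (y axis, %) for chromosome 6 and all other chromosomes, in the truncated line (left) and the full-length line (right), with values beyond 2 in either direction placed in the outer steps and lines pointing to the members. In the truncated line chromosome 6 has a main peak to the right of the other chromosomes and a shoulder to the left (medians 0.31 and -0.56 outside and inside the 80 to 100 Mb block), and the members lie at 1.53 to 1.62.

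The gene lists below are read against the shares over all tested genes, which were 2.87% up and 8.41% down in the truncated line and 4.07% up and 8.41% down in the full-length line, with median log2 fold changes of -0.06 and -0.08. Of the other PMP22 family genes, Emp2, Emp3 and Pmp22 were tested and limma called none of them in the truncated line, with log2 fold changes of 0.10, 0.10 and 0.36, none at an unadjusted p under 0.05 and none called by voom. Pmp22, which encodes the peripheral myelin protein, was downregulated in the full-length line, like Emp1 (-0.63, adjusted p = 0.0320 from limma), from 1.44 and 1.30 CPM to 0.405 and 0.661. Lim2 was listed at 0 in every library. Gprc5b and Gprc5c had log2 fold changes of 0.38 and 0.45 in the truncated line and were not called there by limma or voom, although both had an unadjusted p under 0.05. Both were upregulated in the full-length line, with 0.64 and 0.82 (adjusted p = 0.00550 and 0.00768 from limma), where Gprc5a was not. Gprc5d had at most 2 reads in a library.

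Among 28 other tested genes of CREB, ATF and AP-1 factors and their co-activators, 2 were upregulated and 1 was downregulated in the truncated line, with a median of -0.02. Fosl2 rose from 10.9 and 11.6 CPM in parental ESCs to 30.2 and 27.8 (log2 fold change 1.30, adjusted p = 0.000342 from limma), with 13.0 and 15.7 in the full-length line. Fosl1 rose by 0.70 on the log2 scale and Jun fell by 0.66. The call of Jun was kept in 1 of the 6 fits that left out a library, the one without the first parental library. In the full-length line, 4 were upregulated and 1 downregulated, with Junb (0.96), the CREB co-activator gene Crtc3 (0.81) and Jund (0.72) upregulated and Creb3l4 downregulated (-0.79). Fosl2 was not called there (log2 fold change 0.33, adjusted p = 0.101).

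Of 5 tested genes of the list of Zfp423 partners, none was called by limma or voom or had an unadjusted p under 0.05 in the truncated line, and the centrosomal protein gene Cep290 was downregulated in the full-length line (-0.86). In the BMP and SMAD pathway, 2 of 20 tested genes were upregulated and 5 downregulated in the truncated line, with a median of -0.13. The inhibitory SMAD gene Smad7 rose (0.88), whereas Id3, a target gene of BMP (-1.09), and Smad9 (-1.20), Bmpr1b (-0.87) and Msx2 (-0.77), each with a mean below 2 CPM, fell. Bmpr1b (1.81 and 1.52 CPM) and Msx2 (2.22 and 1.19 CPM) passed the filter of 1 CPM only through the parental libraries. In the full-length line Smad6, another inhibitory SMAD gene, was upregulated (1.28, adjusted p = 0.00529 from limma) and 2 genes, Bmpr1b and Msx2, were downregulated. Both of these calls were lost, leaving 0, with median-ratio or quantile scaling, with pseudocounts of 0.1 and 5, without a filter and with only the compared lines in the fit, and neither gene was tested with the filter of 10 CPM.

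Of 18 tested genes of the retinoic acid pathway, 3 were upregulated and 2 downregulated in the truncated line, with a median of 0.09. Among those upregulated were Aldh1a3, which makes retinoic acid (1.48, adjusted p = 0.00308 from limma), and the transglutaminase gene Tgm2 (1.17), and Rbp4, the retinol carrier gene, was downregulated (-0.77). Aldh1a3 had 0.619 and 1.74 CPM in parental ESCs and 4.87 and 4.91 in the truncated line. In the full-length line the retinoic acid-binding protein genes Crabp1 and Crabp2 were downregulated (-1.13 and -0.99), as was Rbp4 (-0.81), and none was upregulated. Of 17 tested genes of the EGF receptor pathway and immediate early response, 4 were upregulated and 1 downregulated in the truncated line, with a median of 0.11. Hbegf, an EGF receptor ligand gene, rose by 1.09 on the log2 scale (adjusted p = 0.0003 from limma), Myc by 0.77 and the phosphatase gene Dusp6 by 0.70, and Dusp4 was downregulated (-0.94). In the full-length line 1 gene, Ier2, was upregulated (0.61).

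**Figure D4:**
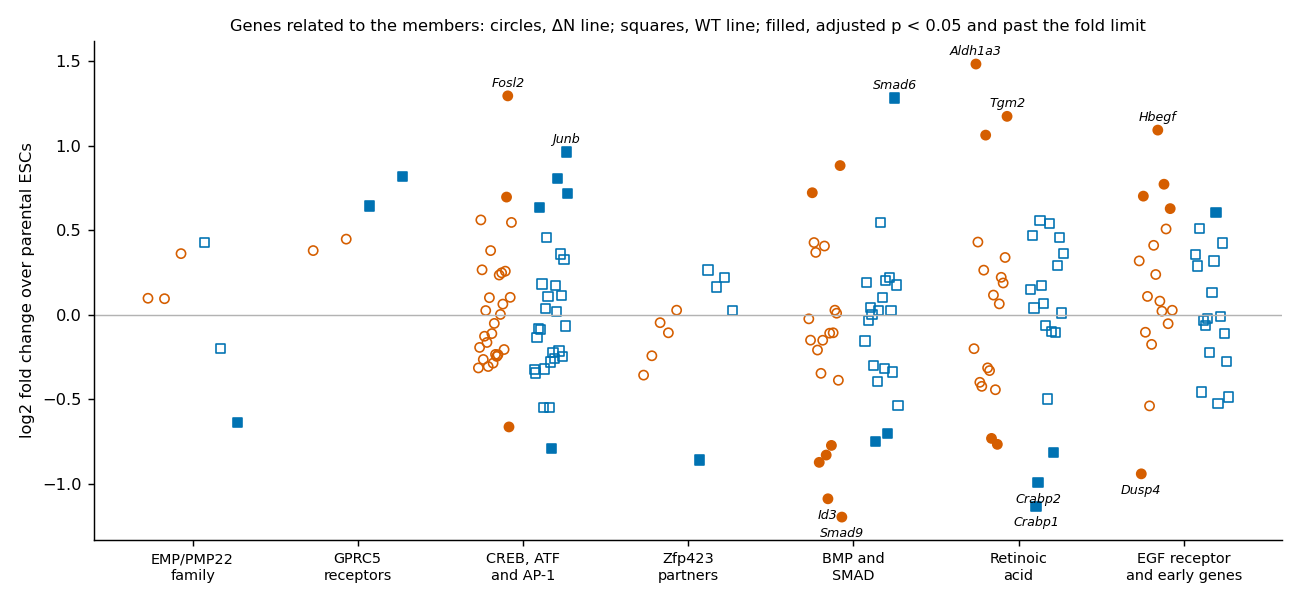
Log2 fold change over parental ESCs (y axis) of the tested genes of each list related to a member (x axis), without the members. Circles are the truncated line, squares the full-length line, filled symbols passed an adjusted p under 0.05 and an absolute log2 fold change above 0.58, and most symbols are open, with Aldh1a3 (1.48) and Fosl2 (1.30) the highest circles.

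Markers of other cell types were read beside the members, because in bulk RNA fewer cells of a type and less RNA per cell cannot be told apart. Of 11 fibroblast markers, 6 had at most 3 reads in any library, among them 3 that were at 0 in every library. The sum of the list was 52.8 to 71.9 CPM in parental ESCs, 25.8 to 27.3 in ESC + H/F-PRAMEL7WT and 47.1 to 54.4 in ESC + H/F-PRAMEL7ΔN. The 3 tested ones, Thy1 (-1.08), Pdgfrb (-1.43) and Col1a1 (-1.02), were all downregulated in the full-length line, where Emp1 was also lower, and neither limma nor voom called any in the truncated line, where 2 had an unadjusted p under 0.05. Their part in the level of Emp1 was not tested. Of 6 tested trophoblast markers, 4 were upregulated in the truncated line, among them Krt8 (0.79), Eomes (0.96) and Hand1 (0.71), and Tfap2c was downregulated (-1.26), while the summed level was 93.7 to 98.6 CPM there and 95.2 to 138 in parental ESCs. Hand1 passed the filter of 1 CPM only through the truncated line (1.66 and 1.53 CPM). It could thus enter this count only by being high there. Of 7 tested primitive endoderm markers, 2 were upregulated and 1 downregulated in each derived line, with Col4a1 (0.91) and Gata4 (0.78) upregulated in the truncated line. The downregulated marker, Pdgfra, passed that filter only through the parental libraries (1.03 and 1.19 CPM). Of 6 tested surface epithelium markers, Krt19 was upregulated in the truncated line (0.75) and Grhl2 in the full-length line (0.66), and the sums overlapped between parental ESCs (782 to 847 CPM) and the truncated line (799 to 802 CPM). The part of these cell types in the rise of the members was not tested.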

How the data were processed

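RNA-seq values of 3 lines with 2 libraries each were used, whereas the methods give triplicates. The ChIP-seq samples were not analysed here. The authors mapped the reads to mm10, counted them on exons and deposited RPKM values. The submitters' notes name Bowtie2 2.3.4.3 and Subread 1.4.6-p4, whereas the methods name STAR. The authors' deposited comparison tables hold fold changes and p-values of DESeq2, which were not used, and a mean signal over all libraries after their scaling, which served to find the length behind the RPKM. Over 9851 genes that length was within 10% of the gene span for 98.4% and of the exon length for 8.83%. CPM were obtained as RPKM times the gene span, with a single factor for all libraries, and 98.1 to 98.4% of values up to 20 reads per library lay within 0.1 of a whole read.

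Of 50978 rows, 176 had a repeated or date-like name, 2796 had no entry in GENCODE vM21 and 66 had more than one, and these were left out. The test, limited to genes that exceeded 1 CPM in 2 or more libraries, was made on log2(CPM + 1) with limma 3.58.1 (mean-variance trend) in R 4.3.3, with all 6 libraries in one fit and Benjamini-Hochberg adjustment over 12914 genes. The fold changes are on that scale, which understates changes of low genes. Ratios are of mean CPM, and intervals are 95%. A gene was called at an adjusted p under 0.05 and an absolute log2 fold change above 0.58. Scripts were tested on simulated data. Other tools were python 3.11.15, numpy 2.4.6, pandas 2.3.3 and matplotlib 3.10.9.

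The members, the gene lists and the 80 to 100 Mb block were chosen with earlier results of these data known. Genes other than the members were named by rule, and some that met it are not reported here. The rule took the next gene in the ranking, called genes within 1 Mb of a member (at most 6 each), all EMP and GPRC5 relatives, the 4 called genes of each list and line with the largest change, the 5 genes of chromosome 6 with the largest rise, and the 3 most similar profiles per member. Hebp1 and Dynlt1-ps1 lie between 2 members and Lim2 and Gprc5d belong to the families. Alternatives were other pseudocounts, filters, scalings, variance models (voom on whole reads, and no trend) and units, an unadjusted p, a replicate block and leaving out each library.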

Additional observations from a re-analysis of the deposited data

Results flagged for a closer look

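Emp1 was set apart because both libraries of the truncated line lay above parental ESCs and both libraries of the full-length line lay below, with a log2 difference between the derived lines of 2.51. This difference was not tested, since the gene was chosen for its level in the truncated line. The genes below were set apart because the derived lines differed from each other in limma, except as stated. Most of them were named for a change in a contrast that shares these libraries, so they are no independent test. Values are log2 differences of the truncated minus the full-length line.

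Genes with profiles like those of the members were picked for a rise in the truncated line and for that likeness, so their values are a description and no test. Among them, Lemd1 had 2.66, Abca1 2.33, Cald1 1.84, Vwa1 1.69 and Arhgef5 1.41. Around Emp1 and Gprc5a, Fam234b had 1.40, Crebl2 1.03, Cdkn1b 0.93, Dusp16 0.93 and Lrp6 0.81. Around Creb5, Fkbp14 had 1.21, Hibadh 0.96, Plekha8 0.95, Tax1bp1 0.95 and Wipf3 0.93. Around Zfp423, Cbln1 had 1.22 and Nod2 -1.02. Elsewhere on chromosome 6, Tead4 had 1.30 and Capg 0.93, a description because both were named for their rise in the truncated line.

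Among genes of the lists, Aldh1a3 had 1.01, Pmp22 1.00, Fosl2 0.97, Fosl1 0.94, Tgm2 0.81, Myc 0.78, Hbegf 0.77, Crabp1 0.73 and Smad7 0.71, and values below 0 were found for Smad6 (-1.67), Dusp4 (-1.23), Junb (-0.86), Id3 (-0.77) and Jun (-0.60). Among markers, Krt19 had 1.33, Pdgfrb 0.97, Klf4 0.90, Thy1 0.89, Eomes 0.82 and Krt8 0.79, against -1.37 for Klf2 and -1.12 for Tfap2c.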

How the results depend on the processing

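The rises of the 4 members in the truncated line kept their direction under 17 alternatives each. The members were chosen for that rise in these same libraries, so the kept direction is a description. An unadjusted p, no trend and the other filters could not change these log2 values. Neither could the replicate block, a fit of only the compared lines, or leaving out either full-length library. Emp1 ranged from 1.45 to 1.79, Creb5 from 1.22 to 1.66, Gprc5a from 1.41 to 1.61 and Zfp423 from 1.34 to 1.72 on the log2 scale. In the full-length line, Emp1 ranged from -1.06 to -0.72 (adjusted p from limma at most 0.0389) and Zfp423 from 0.99 to 1.37 (at most 0.0240), while Creb5 stayed uncalled (at least 0.0921). Gprc5a in that line turned to -0.042 without the first parental library (-0.042 to 0.084 over the libraries left out), and it was called in neither case. Deposited RPKM without conversion tested none of the members, since none exceeded 1 RPKM in 2 libraries.

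The number of genes called over parental ESCs was 1456 in the truncated and 1612 in the full-length line, and 1465 between the derived lines. These counts were 725, 854 and 839 with a filter of 10 CPM, 646, 699 and 736 with a pseudocount of 5, and 42, 39 and 53 with RPKM without conversion. Without a filter the derived lines differed in 965 genes. Leaving out 1 library gave 765 to 2113, 674 to 2133 and 691 to 1621. The counts fell by more than 1.5 times without either library of the truncated line (765 and 886) in the first contrast, without either full-length library (691 and 674) in the second, and in the third without either full-length library (760 and 691) or the second truncated one (716). On chromosome 6, the 66 genes up and 77 down in the truncated line became 100 up with quantile scaling, 47 down with a filter of 10 CPM, 46 down with a pseudocount of 5, and 1 and 2 with RPKM without conversion. In the full-length line, 16 up and 102 down became 10 and 60, 9 and 50, and 1 and 2 with that filter, that pseudocount and RPKM. Leaving out 1 library gave 43 to 98 up and 50 to 82 down in the truncated line and 8 to 26 up and 50 to 126 down in the full-length line. The number up in the truncated line was 43 without either of its own libraries, and in the full-length line 9 and 8 up and 58 and 50 down without its first and second library. Why these counts moved was not tested, apart from the fewer genes tested under a filter or with RPKM.

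Scaling changed the balance of calls. For the truncated line it was 370 up and 1086 down, against 604 and 720 with quantile and 533 and 878 with median-ratio scaling. For the full-length line it was 526 and 1086, against 803 and 759 and 785 and 797. Same-numbered libraries did not deviate together (correlations of 0.207, -0.249 and -0.103), so a replicate block was not used. With it, 343 up and 1000 down, 499 and 1024, and 559 and 815 genes were called, where the comparison of the derived lines gave 609 and 856 without it. Counts for the small lists moved in 182 of 864 alternatives, and Jun, for example, was called in 1 of the 6 fits that left out a library, the one without the first parental library. With 2 libraries per line, each line possibly 1 clone, smaller differences between lines are beyond what these data resolve.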
